A study of Mus musculus with 42 samples.

Results

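Tnf, Lta, Ltb, Tnfsf9, Tnfsf10, Tnfsf13b, Tnfsf15 and Cd40 were followed in mouse macrophages with and without the nuclear receptor Nur77 (gene Nr4a1), before and after lipopolysaccharide (LPS), a bacterial cell wall component. The 8 genes were taken by symbol from 21911 protein-coding genes of the mouse genome (mm10), by a list drawn up with earlier results of these data known. They carry the name of tumour necrosis factor (TNF) superfamily ligands, and 7 of them encode ligands. Cd40 encodes a receptor, so it is described apart from the ligands.

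Ligands of the TNF superfamily form trimers, most are made as membrane proteins, some of which are shed, and they bind receptors of the TNF receptor superfamily, which recruit TRAF adaptors or death-domain proteins. Tnf encodes TNF, the early inflammatory cytokine of macrophages, and Lta and Ltb encode lymphotoxin alpha and lymphotoxin beta, which together bind the lymphotoxin beta receptor. Tnfsf9 encodes 4-1BBL, Tnfsf15 encodes TL1A, Tnfsf10 encodes TRAIL and Tnfsf13b encodes BAFF, a survival factor for B cells. CD40 on macrophages receives the T cell ligand CD40LG. In macrophages, Toll-like receptor signalling switches on Tnf within minutes to hours, largely through NF-kB.

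Chromatin immunoprecipitation with sequencing (ChIP-seq) was run for RNA polymerase II (Pol II), the enzyme that transcribes genes, and for H3K27ac, a histone mark of active promoters and enhancers. Bone marrow-derived macrophages came from male C57Bl6/J mice aged 6 to 12 weeks and were grown for 7 days with L929-conditioned medium. They were wild type (WT) or lacked Nur77 in the whole body (KO), the deletion having been made by crossing loxP-flanked mice with Cre mice driven by a CMV promoter, and littermates served as WT. The KO label itself reads only "cre". Cells were untreated (0 h) or held in 100 ng/ml LPS for 1 h or 18 h, which gave 6 groups of 3 libraries for each antibody and 1 input library (chromatin without immunoprecipitation) for each genotype and time. The study calls its ChIP-seq replicates biological, but no source used here says whether the 3 libraries of a group came from separate mice, so p-values measure the spread between these libraries. Fewer cells with Pol II on a gene and less Pol II per cell cannot be told apart.

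The deposited libraries held 21.73 to 36.12 M tags for Pol II, 13.51 to 31.15 M for H3K27ac in WT, 23.56 to 55.37 M for H3K27ac in KO and 25.6 to 45.31 M for input. The 9 macrophage markers checked had Pol II regions in every library, with 23200 to 49000 summed normalized tags. Of the markers of other cell types, 2 of 5 for T cells (26.4 to 128 summed tags), 1 of 5 for B cells (41.4 to 161) and 2 of 3 for dendritic cells (258 to 1370) had regions in every library, against 0 of 5 for neutrophils (0 to 45.3), 0 of 3 for NK cells (0 to 74.5) and 0 of 3 for fibroblasts (0 to 6.21), and Cd3e, Cd3g, Cd8a, Pax5, Ly6g, Ncr1 and Col1a1 were among those with none in any library. Pol II over Nr4a1 was 189.3, 188.3 and 208.3 normalized tags in the WT libraries at 0 h and 87.83, 76.1 and 70.23 in the KO libraries (limma adjusted p = 1.2e-04), yet 25.5, 23 and 30.36 against 33.5, 39.02 and 36.6 at 1 h (adjusted p = 0.089). Since the sources used here do not place the deleted part of the gene, Pol II there is no check of the deletion. The 18 Pol II libraries correlated at r = 0.985 to 0.993 within groups. For H3K27ac, 3 KO libraries stood apart: replicates 2 and 3 at 1 h correlated at r = 0.904 to 0.906 with WT at 1 h, where replicate 1 reached 0.978 to 0.98, and replicate 1 at 18 h correlated at 0.908 to 0.91 with WT at 18 h, where replicates 2 and 3 reached 0.979 to 0.983. Within KO at 1 h, replicates 2 and 3 correlated at 0.991 with each other and at 0.912 and 0.913 with replicate 1, so at that time replicate 1 is the one apart from its own group. At 18 h replicates 2 and 3 correlated at 0.993 and replicate 1 at 0.914 and 0.915 with them. The libraries were kept under their labels, and whether any were exchanged was not tested. The main H3K27ac values use every library. Values without these 3 are given beside them, with the limit that the 3 were picked for being unlike WT, so a comparison of KO with WT that leaves them out is no independent check.

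Tnf, Lta and Ltb lie side by side on chromosome 17, within 10.91 kb. Tnf occupies chr17:35199381-35202007 on the minus strand. Lta (chr17:35203165-35205351, minus strand) ends 1157 bp upstream of the start of Tnf. Ltb (chr17:35194439-35196320, plus strand) faces them, and its end lies 3060 bp past the end of Tnf. Tnfsf9 is elsewhere on that chromosome (chr17:57105325-57107757, plus strand). Tnfsf15 spans 18.03 kb (chr4:63727084-63745113, minus strand), Tnfsf10 25.40 kb (chr3:27317028-27342427, plus strand), Tnfsf13b 32.61 kb (chr8:10006467-10039072, plus strand) and Cd40 17.32 kb (chr2:165055627-165072948, plus strand).

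RefSeq promoter windows on GRCm38.p6, from 250 bases before to 50 bases after the start, matched 6 of the 8 symbols. Tnfsf9 and Cd40 had no entry. The windows were searched on both strands for NF-kB (GGGNNNTTCC, found in 5.56% of 32851 RefSeq promoter windows of this length), AP-1 (TGANTCA, 7.81%), an interferon-response element (GAAANNGAAA, 3.44%), the NR4A half-site NBRE (AAAGGTCA, 1.51%) and a TATA box (TATAAA, 13.6%). These letters were chosen after the sequences had been read, and no motif overlapped another in a member. Positions are counted from the RefSeq start of each window, which for Ltb, Tnfsf10, Tnfsf15 and 1 window of Tnfsf13b lies downstream of the GENCODE start given above. Ltb held the NF-kB letters as GGAAAGTCCC on the minus strand, 87 to 78 bases before that RefSeq start, Tnf held a TATA box 29 to 24 bases before its start, and Lta held one 167 to 162 bases before its start. Tnfsf13b had 2 overlapping windows, which share the same AP-1 letters, and the one with the downstream start held the interferon-response letters 16 to 7 bases before it. The windows of Tnfsf10 and Tnfsf15 held none of the 5 motifs, and NBRE was in none of the windows of the 6 genes, which says only that these letters are not there. The 4 promoters below are those of Tnf, the early cytokine, of Ltb, which held the NF-kB letters, of Tnfsf15, whose Pol II differed between genotypes at 18 h, and of Tnfsf10, whose Pol II rose late, and capitals mark the motif where there is one. In order, they are chr17:35201958-35202257 (minus strand), chr17:35194257-35194556 (plus), chr4:63745010-63745309 (minus) and chr3:27316827-27317126 (plus).
Tnf: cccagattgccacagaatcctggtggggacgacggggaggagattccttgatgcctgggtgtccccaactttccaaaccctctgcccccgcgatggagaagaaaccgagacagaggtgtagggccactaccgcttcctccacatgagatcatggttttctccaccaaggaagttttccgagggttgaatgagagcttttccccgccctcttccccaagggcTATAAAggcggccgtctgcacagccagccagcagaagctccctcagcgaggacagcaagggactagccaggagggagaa
Ltb: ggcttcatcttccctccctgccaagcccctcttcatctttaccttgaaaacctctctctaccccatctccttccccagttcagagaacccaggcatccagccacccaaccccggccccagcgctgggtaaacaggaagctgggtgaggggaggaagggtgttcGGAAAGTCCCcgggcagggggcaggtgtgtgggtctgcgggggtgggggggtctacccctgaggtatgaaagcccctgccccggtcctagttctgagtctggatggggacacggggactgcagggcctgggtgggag
Tnfsf15: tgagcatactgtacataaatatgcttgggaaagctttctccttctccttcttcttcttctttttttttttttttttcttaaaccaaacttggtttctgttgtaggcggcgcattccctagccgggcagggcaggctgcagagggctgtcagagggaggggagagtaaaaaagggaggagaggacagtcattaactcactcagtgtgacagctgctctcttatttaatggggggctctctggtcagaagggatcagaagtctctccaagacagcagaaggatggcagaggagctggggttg
Tnfsf10: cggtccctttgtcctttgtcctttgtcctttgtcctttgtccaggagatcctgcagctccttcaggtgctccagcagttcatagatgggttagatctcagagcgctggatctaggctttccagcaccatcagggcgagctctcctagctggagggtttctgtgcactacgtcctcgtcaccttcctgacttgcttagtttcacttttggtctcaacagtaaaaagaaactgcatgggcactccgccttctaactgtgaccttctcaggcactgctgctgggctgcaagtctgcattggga

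Pol II was measured as normalized tags (tags scaled to a common library total) of the deposited regions, shared out by overlap over the gene body with 500 bp on either side. With 1 h of LPS, Pol II rose at Tnf, Lta, Ltb, Tnfsf9, Tnfsf15 and Cd40 in both genotypes, by 7.88-fold to 87.9-fold on the log2(tags + 10) scale. Tnfsf10 instead rose at 18 h, and Tnfsf13b held at most 19.63 tags in any library. In WT at 1 h, 6 members rose and 1 fell, where 87.0% of 13249 genes tested were called (limma, Benjamini-Hochberg adjusted p under 0.05). In KO at 1 h 6 rose and 0 fell, beside 82.9% of genes. Most genes were called at 1 h, so the count says little of the members. As a description of these 8 genes, their median change was 3.99 in WT and 3.96 in KO on the log2 scale, and that of all genes tested was -0.82 and -0.62. Other ligands of the superfamily had medians of 0.65 and 0.39 and the receptors of the members -0.56 and -0.52. After each library was centred on its median, 6 members rose and 0 fell in WT, and 8 rose in KO.

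At 18 h 7 members were higher and 1 was lower than at 0 h in WT (7 and 0 under quantile normalization), beside 66.6% of genes called, and 6 were higher and 0 lower in KO, beside 70.2%. From 1 h to 18 h, averaged over the genotypes, Pol II fell at 6 members and rose at 1, beside 87.1% of genes called. The median change of the members between these times was -2.21, and that of all genes tested was 0.62.

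**Figure D1:**
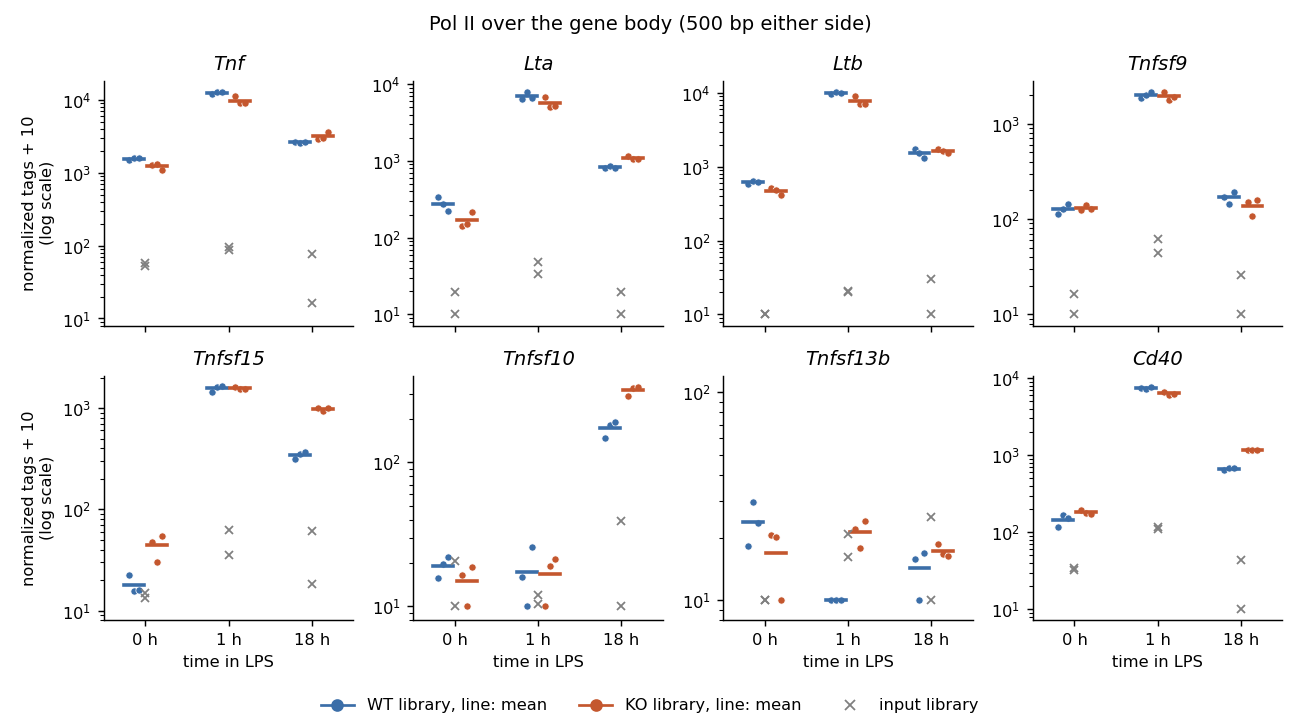
Pol II over each gene body (normalized tags + 10, log scale) against time in LPS, with 1 point for each library, a line at the mean of 3 libraries and a cross for each input library. Tnf, Lta, Ltb, Tnfsf9, Tnfsf15 and Cd40 peaked at 1 h, Tnfsf10 was high at 18 h, and Tnfsf13b held at most 19.63 tags, close to the inputs at 1 h and 18 h.

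At Tnf, the WT libraries held 1477, 1602 and 1574 normalized tags at 0 h, 12050, 12953 and 12786 at 1 h, then 2636, 2542 and 2653 at 18 h. The KO libraries held 1267, 1325 and 1083 at 0 h, 11309, 8899 and 9043 at 1 h, then 2920, 3002 and 3645 at 18 h. The KO libraries lay below every WT library at 0 h and 1 h and above every WT library at 18 h. Per kb of window, Tnf ranked 34 of 21911 genes in untreated WT cells, 2 at 1 h and 11 at 18 h, so the gene carried much Pol II before LPS was added. The rise at 1 h was 3.01 (SE 0.10) on the log2 scale in WT and 2.98 (SE 0.10) in KO (limma adjusted p = 5.7e-15 and 6.8e-15). At 18 h Tnf remained 0.75 above 0 h in WT and 1.37 above it in KO (adjusted p = 2.1e-06 and 5.9e-10). The 6 inputs held 6.07 to 84.88 tags in the same window.

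The value of Lta, next to Tnf, started lower and changed more on the log2 scale. Its window held only the edge of a Pol II region that covered Tnf, at the density of that region. The length covered was 0.63 kb at 0 h, 1.99 kb at 1 h and 1.13 kb at 18 h in WT. In KO it was 0.48, 2.11 and 1.25 kb, so the changes below combine density and covered length. The WT libraries held 325.8, 265.5 and 210 tags at 0 h, 6362, 7850 and 6617 at 1 h, then 794.4, 844.6 and 798.1 at 18 h. In KO they held 133.4, 141.8 and 203.4, then 6722, 5067 and 5241, then 1154, 1035 and 1053. KO was below WT at 0 h and above it at 18 h without overlap, and the genotypes overlapped at 1 h. Lta rose by 4.66 (SE 0.15) in WT and 5.08 (SE 0.15) in KO at 1 h, and lay 1.59 and 2.71 above 0 h at 18 h (adjusted p of at most 6.4e-08 for the 4 changes).

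Ltb showed 576.2, 635.6 and 622.3 tags at 0 h, 9575, 10292 and 10160 at 1 h, then 1719, 1513 and 1324 at 18 h in WT. In KO the values were 504.7, 478.7 and 406.2, then 8986, 7071 and 7185, then 1717, 1653 and 1523. The genotypes were apart at 0 h and 1 h, with KO lower, and overlapped at 18 h. The rise at 1 h was 4.01 (SE 0.10) in WT and 4.03 (SE 0.10) in KO, and at 18 h the changes from 0 h were 1.29 and 1.80.

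These 3 genes were not measured separately. A single stitched Pol II region covered Tnf and reached the windows of Lta and Ltb in each of the 18 libraries, and its tags were shared out evenly along its length. It was 7.54 to 8.06 kb long at 0 h, 11.45 to 12.47 kb at 1 h and 8.41 to 9.41 kb at 18 h. Its mean density in WT was 427.6 ± 18.1, 3472.9 ± 132.5 and 719.7 ± 16.5 tags per kb at 0, 1 and 18 h, and in KO 337.8 ± 34.8, 2688.2 ± 372.7 and 879.3 ± 109.5 (SD, n = 3). At 1 h Ltb lay wholly inside it, so that Tnf and Ltb had the same tags per kb, and their changes between genotypes at that time are 1 measurement. The start of Ltb was outside the region at 0 h, where the edge stood 0.94 to 1.07 kb inside the gene, and inside it at 1 h, where the edge stood 1.02 to 2.18 kb before the start. The start of Lta was outside it in every library, the nearest edge being 0.49 to 0.81 kb into the gene at 1 h, so the values of Lta come from its 3′ part and the gap towards Tnf.

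**Figure D2:**
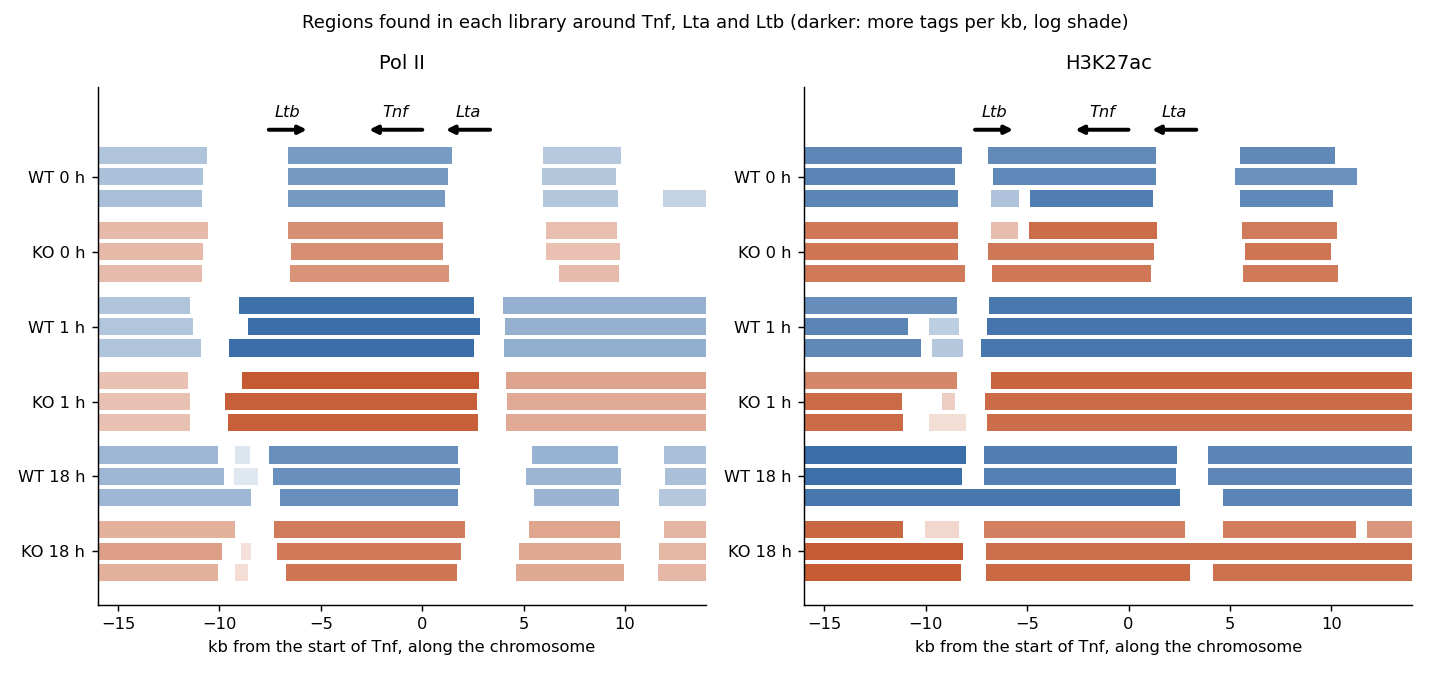
Regions found around Tnf, Lta and Ltb in each library (bars, darker for more tags per kb), against the distance in kb from the start of Tnf along the chromosome, with arrows for the genes and their direction. The Pol II region over Tnf was longer in the 6 libraries at 1 h (11.45 to 12.47 kb) than in the other 12, and the H3K27ac region spread past Lta at 1 h.

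Tnfsf9 was the most transient. It held 103, 117.9 and 132.5 tags at 0 h, 1837, 2003 and 2122 at 1 h, then 159.9, 134 and 181 at 18 h in WT, and 114.3, 129.9 and 117.5, then 2127, 1747 and 1886, then 139.2, 96.44 and 148.2 in KO. The genotypes overlapped at each time. The rise at 1 h was 3.97 (SE 0.14) in WT and 3.88 (SE 0.14) in KO, and the fall from 1 h to 18 h was 13-fold, the largest among the 8 members on the log2(tags + 10) scale (log2 change -3.70, SE 0.10, adjusted p = 2.3e-16). At 18 h Tnfsf9 was 0.39 above 0 h in WT (adjusted p = 0.019), a call that was lost without replicate 1, without replicate 3 or after centring on the median (adjusted p = 0.0079 to 0.19 over its 11 alternatives). In KO at 18 h it did not pass the test (adjusted p = 0.71).

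Tnfsf15 started low, near the input level in WT, and was still far above 0 h at 18 h. In WT it held 12.3, 5.53 and 6.13 tags at 0 h, 1437, 1596 and 1623 at 1 h, then 306.7, 339.4 and 358.6 at 18 h. In KO it held 37.55, 20.2 and 44.53, then 1620, 1522 and 1520, then 983.4, 932.8 and 982.4. The genotypes were apart at 0 h and 18 h, with KO higher, and overlapped at 1 h. The inputs held 3.288 and 4.86 tags at 0 h and up to 52.27 at later times, so the WT values at 0 h lie close to input. The rise at 1 h was 6.46 (SE 0.17) in WT and 5.19 (SE 0.17) in KO, and at 18 h the changes from 0 h were 4.28 and 4.51. From 1 h to 18 h Tnfsf15 fell by 1.43 (SE 0.12) averaged over genotypes that differed, from 1552 to 335 tags in WT and from 1554 to 966 in KO. Tnf, Lta, Ltb, Tnfsf9 and Cd40 fell by 1.94, 2.72, 2.48, 3.70 and 2.95 averaged in the same way.

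Tnfsf10 was the late gene of the set. The WT libraries held 5.81, 9.75 and 12.1 tags at 0 h, then 6.03, 0 and 15.9 at 1 h, then 137, 172.9 and 181.2 at 18 h. In KO it was 6.52, 0 and 8.7, then 0, 9.13 and 11.4, then 280, 319 and 323.9. A 0 means that no region was found, not that Pol II was absent. The values at 0 h and 1 h overlapped with each other and with the inputs (0 to 29.38 tags), and each library at 18 h was above all of those at earlier times. From 0 h to 18 h Pol II rose by 3.18 (SE 0.32) in WT and 4.44 (SE 0.32) in KO (adjusted p = 9.8e-08 and 8.9e-10), while at 1 h neither genotype passed the test (adjusted p = 0.47 and 0.7).

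Tnfsf13b had the lowest maximum of the 8 members. Its highest value in any library was 19.63 tags, and the inputs held 0 at 0 h and up to 15.23 at later times in the same window. The WT libraries held 8.3, 19.63 and 13.6 tags at 0 h, 0, 0 and 0 at 1 h, then 5.82, 0 and 6.86 at 18 h, and the KO libraries 10.5, 10.1 and 0, then 11.9, 7.89 and 14, then 8.61, 6.78 and 6.39. The WT fall at 1 h passed the test (adjusted p = 2.4e-04) but not after centring on the median (adjusted p = 5.0e-04 to 0.12 over its 12 alternatives). That at 18 h passed it too (adjusted p = 0.015) and was lost without replicate 2 and under 3 other alternatives (adjusted p = 0.0071 to 0.31 over 12). No fold is given, as no region was found in any WT library at 1 h.

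Cd40, the receptor, had the time course of the early ligands. It held 105.8, 158.6 and 141.5 tags at 0 h, 7386, 7190 and 7687 at 1 h, then 641.1, 673.4 and 667.1 at 18 h in WT. In KO it held 185.5, 170 and 163.1, then 6568, 6132 and 6277, then 1164, 1177 and 1170. The genotypes did not overlap at any of the times, with KO higher at 0 h and 18 h and lower at 1 h. The rise at 1 h was 5.69 (SE 0.10) in WT and 5.12 (SE 0.10) in KO, and the changes from 0 h to 18 h were 2.22 and 2.69. Within 500 bp of the start alone, the WT change at 18 h was 0.15 (adjusted p = 0.27, the highest of its 13 alternatives, which begin at 1.5e-14). Regions over Cd40 overlapped input regions in many libraries, and with such regions left out the change was -0.55 in WT and -0.49 in KO at either time. The inputs held 0 to 108.4 tags in this window.

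Across the 18 Pol II libraries the members fell into an early set and 2 exceptions. Pearson's r of log2(tags + 10) was 0.98 between Tnf and Cd40 and 0.94 between Tnf and Tnfsf9, and -0.46 between Tnfsf9 and Tnfsf10. Within the early set the lowest value was 0.69, between Tnfsf9 and Tnfsf15, and Tnf and Tnfsf15 reached 0.86. These values are descriptions, since the libraries share 3 time points and Tnf, Lta and Ltb share a region. Among 13226 genes with Pol II regions in at least 6 libraries and over 100 kb away, those most like Tnf were Tnfaip2 (r = 0.993), Astl (0.992) and Dusp2 (0.991). Those most like Cd40 were Stat5a (0.998), Akna (0.995) and Cish (0.994). Tnfsf9 was most like Col27a1, Nfkbiz and Cav1 (each 0.994), Tnfsf15 like Rftn1 (0.989), Gna13 (0.985) and Gpx3 (0.984), and Tnfsf10 like Kif5c (0.982), Tlr3 (0.981) and Gpr31b (0.981). Lta was most like App (0.990), Ehd1 (0.989) and Nfkbia (0.989), and Ltb like Tnfaip2, Nupr1 and Astl (each 0.994). For Tnfsf13b the closest, Ccdc15, Gtf2e1 and Gm44965, reached only 0.791, 0.776 and 0.765.

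To ask how loss of Nur77 bore on the members, KO was set against WT at each time. Before LPS, KO macrophages had less Pol II at Tnf, Lta and Ltb and more at Tnfsf15 and Cd40. At 1 h KO still had less at Tnf and Ltb, and at 18 h it had more at Tnf, Tnfsf15 and Cd40. Of these calls, those at Tnfsf15 and Cd40 at 18 h held in each alternative that gave a value (12 for each gene). The counts were 5 of 8 members at 0 h (2 higher and 3 lower in KO), where 6.96% of 13240 genes were called, 3 of 8 at 1 h (1 higher and 2 lower), where 45.7% were called, and 3 of 8 at 18 h (3 higher), where 21.1% were called. The 3 lower at 0 h, Tnf, Lta and Ltb, take their tags from a single shared region, as do the 2 lower at 1 h. They are not separate results. The 0 h count was 1 to 2 when a replicate was left out, and 0 within 500 bp of the start. At 1 h the share of members called was below that of all genes. All genes tested shifted by a median of 0.04, 0.24 and -0.10 at the 3 times, so that relative to the median gene Tnf was lower in KO by 0.38 at 0 h and by 0.62 at 1 h. After centring on the median, 1 member was higher and 4 were lower at 1 h, and 5 were higher at 18 h. Under quantile normalization 1 was higher and 3 were lower at 1 h, and 2 were higher at 18 h, where Tnf lost its call.

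Tnfsf15 held 34.1 ± 12.5 tags in KO and 7.99 ± 3.75 in WT at 0 h (SD, n = 3), a log2 change of 1.27 (SE 0.17, limma adjusted p = 8.7e-05). More of the gene was covered by regions in KO, 2.70 kb against 0.64 kb on average, while the density there was 12.7 ± 0.415 and 12.2 ± 1.16 tags per covered kb, a difference smaller than the SD of WT. Within 500 bp of the start the change was 0.22 (adjusted p = 0.39, the highest of its 12 alternatives, which begin at 1.2e-04). At 1 h the genotypes held 1554 ± 57 and 1552 ± 101 tags, and the 95% interval of the log2 change was -0.35 to 0.36. At 18 h KO held 966 ± 28.9 tags and WT 335 ± 26.2, 2.84-fold more in KO (log2 change 1.50, SE 0.17, adjusted p = 4.4e-06). Here both the covered length (19.03 against 16.39 kb) and the density within it (50.8 ± 1.52 against 20.5 ± 0.771 tags per covered kb) were higher.

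Cd40 held 1170 ± 6.38 tags in KO and 661 ± 17.2 in WT at 18 h, 1.76-fold more in KO (log2 change 0.82, SE 0.10, adjusted p = 9.1e-06). The covered length was 18.32 and 17.54 kb, and the density 63.9 ± 0.344 and 37.7 ± 1.07 tags per covered kb. At 0 h the change was 0.35 (SE 0.10, adjusted p = 0.037) and was lost under 8 of its 13 alternatives, among them leaving out any 1 of the replicates, down to 0.14 without replicate 1, and the replicate block (adjusted p = 0.053, and 0.0015 to 0.95 over the 13). At 1 h it was -0.23 (SE 0.10) and missed the threshold (adjusted p = 0.061), though all 3 KO libraries were below all 3 WT libraries. It was -0.48 after centring on the median (adjusted p = 3.0e-05 to 0.3 over its 12 alternatives).

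At Tnf the change was -0.34 at 0 h, -0.38 at 1 h and 0.28 at 18 h (SE 0.10 each, adjusted p = 0.037, 0.0043 and 0.044), which is 1.27-fold and 1.3-fold less and 1.22-fold more in KO. The 0 h call was lost under 7 of 11 alternatives, among them leaving out any 1 of the 3 replicates and the replicate block (adjusted p = 0.058 with the block, and 0.01 to 0.25 over all 11). The 1 h call was lost without replicate 2 alone (adjusted p = 2.0e-04 to 0.12). The 18 h call was lost under 9 of 11, all but centring and leaving out replicate 1, so also without replicate 2 or 3 and with the block (adjusted p = 0.063 with the block, and 0.0079 to 0.28 over all 11). The KO 18 h input held 6.07 tags at Tnf and the WT 18 h input 65.75, and the part of the input in the difference was not tested. Lta was lower in KO by 0.71 at 0 h (SE 0.15, adjusted p = 0.0076), a call lost without replicate 1 (-0.45) or replicate 2 (adjusted p = 0.0045 to 0.17 over 10 alternatives). At 0 h the region over Tnf covered 0.48 kb of the Lta window in KO and 0.63 kb in WT. The Lta changes of -0.30 at 1 h and 0.41 at 18 h missed the threshold (adjusted p = 0.12 and 0.07). That at 1 h was called after centring (-0.55, limma adjusted p = 0.024) and without replicate 1 (-0.48, adjusted p = 0.036). That at 18 h was called after centring (0.55, adjusted p = 0.035). Ltb was lower in KO by 0.40 at 0 h and 0.38 at 1 h (SE 0.10 each, adjusted p = 0.025 and 0.0071), and its change of 0.11 at 18 h was not called (adjusted p = 0.49). Both calls at Ltb were lost without replicate 2, without replicate 3 and under 1 other alternative each (adjusted p = 0.0038 to 0.22 over 10 alternatives and 1.3e-04 to 0.81 over 11).

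Tnfsf10 held 307.7 ± 24 tags in KO and 163.7 ± 23.5 in WT at 18 h, without overlap, but the log2 change of 0.88 (SE 0.32) missed the threshold (adjusted p = 0.059). It passed after centring and under 2 other alternatives (adjusted p = 2.4e-05 to 0.84 over 13). The density within covered parts was 19.1 ± 2.05 and 16.7 ± 0.809 tags per kb, and the covered length 16.17 and 9.81 kb. Tnfsf13b was called higher in KO at 1 h (adjusted p = 0.0027), where no WT library had a region and the KO libraries held 7.89 to 14 tags, within the range of the inputs. The call was lost with a stricter region threshold or a common density floor (adjusted p = 7.2e-06 to 0.098 over 12 alternatives). Tnfsf9 was not called at any time (adjusted p = 0.93, 0.78 and 0.14).

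**Figure D3:**
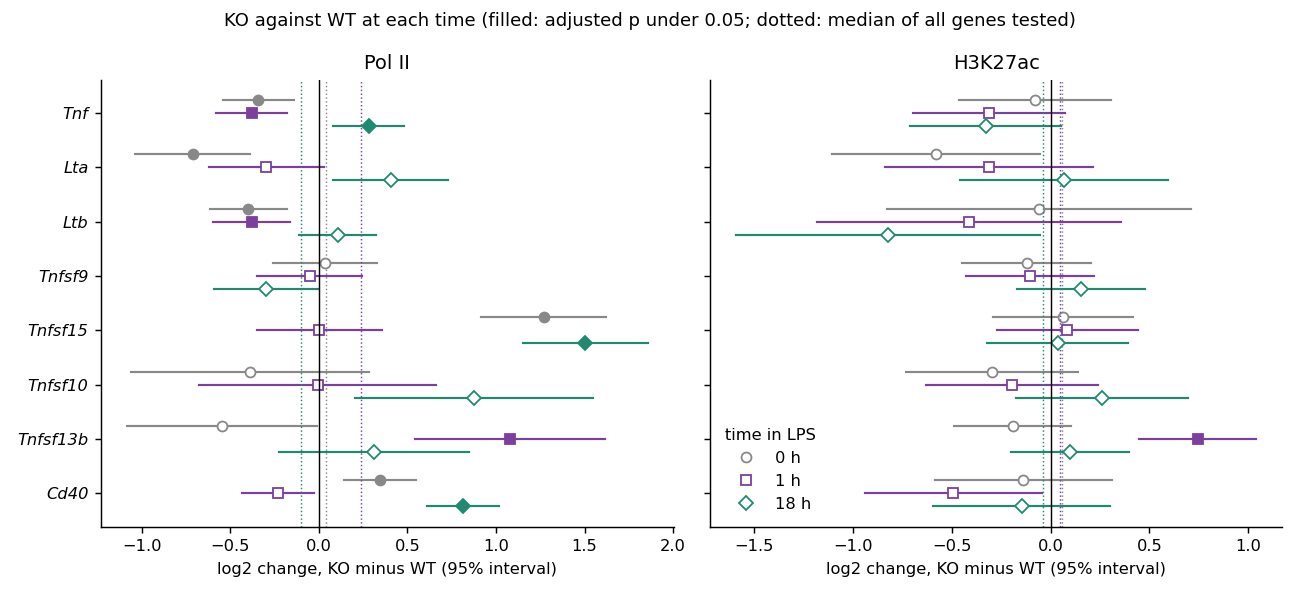
Log2 change between KO and WT for Pol II (left) and H3K27ac (right) at 0 h, 1 h and 18 h, with 95% intervals, filled where the adjusted p was under 0.05, and dotted lines at the median of all genes tested. For Pol II, the filled symbols of Tnfsf15 at 0 h (1.27) and 18 h (1.50) and of Cd40 at 18 h (0.82) lie to the right of the median lines with intervals that leave them out, and for H3K27ac Tnfsf13b at 1 h is the 1 filled symbol.

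Whether the LPS change itself differed between genotypes was tested as an interaction. At 1 h 3 of 8 members passed, beside 18.5% of 13436 genes: Tnfsf15 (-1.27, SE 0.24, adjusted p = 0.0015) and Cd40 (-0.58, SE 0.14, adjusted p = 0.0078) rose less in KO, and Tnfsf13b passed in the other direction (adjusted p = 0.0051). For Tnfsf15 the KO libraries started higher and ended level with WT at 1 h, and within 500 bp of the start the interaction was -0.22. Each of these 3 calls was lost without replicate 3 (over all alternatives, adjusted p = 7.5e-04 to 0.51 for Tnfsf15, 1.6e-05 to 0.95 for Cd40 and 8.9e-05 to 0.25 for Tnfsf13b). At 18 h 4 of 8 passed, beside 14.8% of 13576 genes, and the rise from 0 h was larger in KO for each: Lta by 1.12 (SE 0.22, adjusted p = 0.0021), Tnf by 0.62 (SE 0.13, adjusted p = 0.0045), Ltb by 0.51 (SE 0.15, adjusted p = 0.026) and Cd40 by 0.47 (SE 0.14, adjusted p = 0.029). Tnf, Lta and Ltb take their tags from a single shared region, so their 3 calls are not separate results. The value of Lta also depends on how far that region reached into its window. Tnf lost its call without replicate 3 (adjusted p = 0.0015 to 0.1 over its alternatives), Lta without replicate 1 or 2 (0.0019 to 0.058), and Ltb and Cd40 without replicate 2 or 3 and under 2 and 6 other alternatives (0.0037 to 0.9 and 1.8e-04 to 0.94). Both interactions use the same 0 h libraries as the comparison of KO with WT at 0 h. For Tnfsf15 the interaction at 18 h was not called, though within 500 bp of the start it was 0.73 and passed (limma adjusted p = 0.022). The change of Tnfsf10 differed by 1.26 (SE 0.45) and missed the threshold (adjusted p = 0.07), and it passed after centring and under 2 other alternatives (adjusted p = 0.0013 to 0.57 over 13).

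H3K27ac was measured the same way within 2500 bp of each start, and regions were found at each member in all 18 libraries. It rose at 1 h at Tnf, Lta, Tnfsf9, Tnfsf15 and Cd40 in both genotypes, rose at Tnfsf10 mainly at 18 h, and was higher in KO at Tnfsf13b at 1 h. At 1 h 5 members were called in WT (5 higher), beside 54.7% of genes, and 7 in KO (7 higher), beside 47.0%. At 18 h 6 were called in each genotype (6 higher), beside 50.0% in WT and 52.7% in KO. Between 1 h and 18 h 2 rose and 3 fell (1 and 4 under quantile normalization), beside 63.1%. Without the 3 libraries that stood apart, KO at 1 h is replicate 1 alone, so comparisons with that group are not counted here. The change of Cd40 from 1 h to 18 h was then -0.69. In WT at 1 h 5 members were called, beside 70.4% of genes. At 18 h 7 were called in each genotype, beside 68.0% in WT and 67.7% in KO. Many H3K27ac regions reached past the windows, and counting only those at least 50% inside turned the 1 h change at Tnfsf9 to -4.68 in WT and at Cd40 to -1.21.

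At Tnf the WT libraries held 523.9, 564.1 and 707.9 tags at 0 h, 1155, 1225 and 1193 at 1 h, then 928.4, 869.9 and 1172 at 18 h, and the KO libraries 681.8, 516.6 and 502.4, then 1085, 936.7 and 865.1, then 567.2, 845.8 and 988.3. The mark rose by 0.99 (SE 0.18) in WT and 0.76 (SE 0.18) in KO at 1 h, and was 0.72 and 0.47 above 0 h at 18 h, where the KO libraries overlapped with those at 0 h. The KO call at 18 h was lost under 5 of 14 alternatives, the KO call at 1 h without replicate 2 and with the narrow window, and the WT call at 18 h under those and with regions at least 50% inside. Without the 3 apart libraries the KO rises were 0.94 at 1 h and 0.69 at 18 h. At 1 h a single H3K27ac region of 34.1 to 42.35 kb ran over Tnf and Lta, so that both genes had the same values at that time. Lta rose from 119.6, 144.9 and 117.2 tags at 0 h in WT and from 125.7, 68.7 and 61.87 in KO, by 3.14 (SE 0.25) and 3.40 (SE 0.25), the latter 3.58 without the apart libraries. At 0 h regions covered 0.89 kb of its window in WT and 0.58 kb in KO, at 146 ± 20.7 and 145 ± 13.5 tags per covered kb. At 1 h they covered 5.0 and 5.01 kb, at 238 ± 7.03 and 192 ± 22.4. The rise at Lta thus combines a longer covered length with a higher density. At 18 h Lta held 584.3, 551.5 and 586.1 tags in WT and 363.7, 845.8 and 707.2 in KO, the lowest KO value being the library that stood apart.

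Ltb kept a gap in the mark around its start, between 2 flanking regions, in each library but WT 18 h replicate 3. Its values were 529.2, 476.8 and 294.5 tags at 0 h, 613.9, 504.3 and 562.4 at 1 h, then 1010, 911 and 1172 at 18 h in WT. In KO they were 269.5, 491.2 and 494.9, then 521.9, 390.8 and 356, then 257.1, 839.3 and 875.7. The mark at Ltb was thus highest at 18 h in WT, where Pol II had peaked at 1 h, and the KO libraries at 18 h split, the one that stood apart holding 257.1. The WT change at 18 h was 1.27 (SE 0.36, limma adjusted p = 0.0085), a call lost without replicate 2 or 3 (adjusted p = 9.5e-05 to 0.16 over 14 alternatives). That in KO did not pass with all libraries (adjusted p = 0.26) and was 1.07 without the 3 apart libraries, where it was called.

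Tnfsf9 held 240.3, 237.7 and 261.4 tags at 0 h, 709.7, 716.4 and 751.3 at 1 h, then 273.8, 301.3 and 291.4 at 18 h in WT. In KO it held 218.7, 228.7 and 229.4, then 709.1, 688.2 and 626.4, then 470, 289 and 245.3, of which 470 is the library that stood apart at 18 h. The rise at 1 h was 1.52 (SE 0.15) in WT and 1.54 (SE 0.15) in KO, and by 18 h the mark had fallen by 1.17 (SE 0.11), as Pol II had. Without the apart libraries the KO rise was 1.61 and the fall 1.34. Tnfsf15 held 50.7, 45.6 and 40 tags at 0 h, 253.8, 171.2 and 256.7 at 1 h, then 201.2, 205.8 and 164.9 at 18 h in WT. In KO it held 49.4, 48.5 and 45.4, then 180.8, 265.9 and 278.4, then 194.6, 212.2 and 178.7, overlapping with WT at each time within this window. Pol II over the gene body differed 2.84-fold at 18 h. The H3K27ac region itself was longer in KO at 18 h, 7.62 to 7.8 kb against 3.92 to 5.73 kb in WT. Within the window, the log2 rise at Tnfsf15 in WT was 2.08 at 1 h, and at 18 h it was 1.85 in WT and 1.83 in KO (SE 0.17 each). The KO rise at 1 h was 4.29-fold. Without the apart libraries the log2 rise in KO was 1.72 at 1 h and 1.83 at 18 h. From 1 h to 18 h the change was -0.25 averaged over genotypes (SE 0.12, adjusted p = 0.076), a fall that was called without replicate 1 (-0.32) or without KO 1 h replicate 1 (-0.34), and -0.06 without the 3 apart libraries (adjusted p = 0.0088 to 0.73 over 15 alternatives).

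Cd40 held 77, 91.2 and 78.8 tags at 0 h, 503.3, 622.5 and 451.8 at 1 h, then 372.1, 345.2 and 369.2 at 18 h in WT. In KO it held 72.4, 74.6 and 74, then 518.3, 388.8 and 245.6, then 442.5, 284 and 275.5. Its rises in WT and KO were 2.53 and 2.17 at 1 h and 2.01 in each at 18 h (SE 0.21 each), and those in KO were 2.66 and 1.79 without the apart libraries. Tnfsf10 held 31.3, 28.7 and 29 tags at 0 h, 35.2, 42.1 and 57.5 at 1 h, then 141.3, 113.9 and 142.2 at 18 h in WT, and 13.6, 27.3 and 28.1, then 34.4, 35 and 43, then 130, 205.7 and 152.6 in KO. It rose by 1.84 and 2.40 (SE 0.20 each) at 18 h, the KO value being 2.54 without the apart libraries. At 1 h its change was 0.45 in WT (adjusted p = 0.074) and 0.55 in KO (adjusted p = 0.037), and the KO call was lost without the 3 apart libraries and under 4 other alternatives (0.46, adjusted p = 0.17, and 0.0096 to 0.17 over 15).

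**Figure D4:**
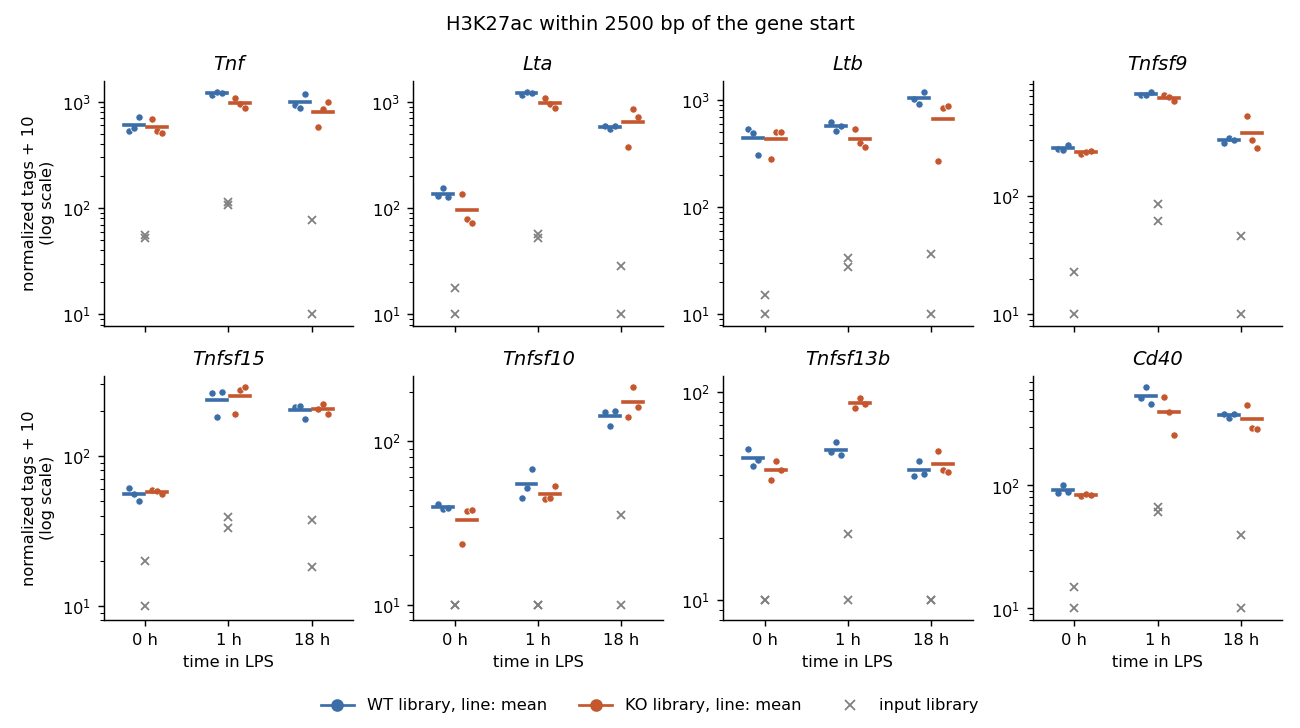
H3K27ac within 2500 bp of each gene start (normalized tags + 10, log scale) against time in LPS, with 1 point for each library, a line at the mean of 3 libraries and a cross for each input library. At Tnfsf13b the 3 KO libraries at 1 h (74.5 to 83.6 tags) lie above the WT libraries (39.8 to 47.4), and at 18 h 1 KO library lies low at Tnf, Lta and Ltb and high at Tnfsf9 and Cd40.

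Between genotypes, H3K27ac was called at 1 of 8 members at 1 h, beside 18.6% of genes, and at 0 of 8 at 0 h and at 18 h, beside 0.770% and 3.24% (limma, with 1 member at each of these times under an unadjusted p of 0.05, Lta and Ltb). Without replicate 1, 5 members were called at 1 h, Tnf, Lta, Ltb and Cd40 being lower in KO (-0.42, -0.42, -0.50 and -0.76, Tnf and Lta from the same region), and Lta was called at 0 h (-0.90) and at 18 h (0.44). At 1 h the KO group is then the 2 libraries that stood apart from WT. With those left out instead, along with the one at 18 h, the changes at 1 h were -0.13 at Tnf, -0.13 at Lta, -0.10 at Ltb and -0.01 at Cd40, none of them called, so these differences rest on KO replicates 2 and 3. The member called at 1 h with all libraries was Tnfsf13b, with 41.8, 47.4 and 39.8 tags in WT and 74.5, 83.6 and 78 in KO. At 0 h WT had held 43.5, 34.1 and 37.2 tags and KO 27.7, 36.9 and 32.2. At 18 h the values were 29.6, 36.5 and 30.3 in WT and 42, 32.3 and 31.3 in KO. From 0 h to 1 h the mark rose by 1.07 (SE 0.14, adjusted p = 1.6e-05) in KO and changed by 0.14 (adjusted p = 0.42) in WT. The change at 1 h was 0.74 (SE 0.14, adjusted p = 0.0037), and the density within the region was 36.2 ± 2.95 tags per covered kb in KO and 22.6 ± 3.31 in WT. It was 0.68 without the 3 apart libraries, where the KO group is replicate 1 alone, assumed to vary like the others, and 8.55% of genes were called. With KO replicate 1 left out instead it was 0.78 (adjusted p = 6.9e-04), and Cd40, at -0.49 with all libraries (adjusted p = 0.11), was called lower in KO at -0.73 (adjusted p = 0.0071), against -0.01 without the 3 apart libraries (adjusted p = 0.98). The Tnfsf13b call was lost without replicate 2 or 3 and with a stricter region threshold or a common density floor (adjusted p = 5.9e-04 to 0.25 over 15 alternatives). At 18 h, where Pol II at Tnfsf15 and Cd40 was called higher in KO, the H3K27ac change within 2500 bp of the start had a 95% interval of -0.32 to 0.39 at Tnfsf15 and -0.59 to 0.30 at Cd40. Without the 3 apart libraries the Cd40 change at 18 h was -0.36 (adjusted p = 0.037), where 18.6% of genes were called, and without KO 18 h replicate 1 alone it was -0.36 and not called.

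The H3K27ac interaction at 1 h was called for 1 of 8 members, Tnfsf13b (0.94, SE 0.20, adjusted p = 0.045), beside 0.568% of genes. It was lost under 8 of its 15 alternatives, leaving out replicate 2 or 3 among them (adjusted p = 0.0023 to 0.88), and was 0.87 without the 3 apart libraries, where 3.55% of genes were called. At 18 h it was called for 0 of 8, beside 0.605% of genes, with 0 members under an unadjusted p of 0.05. Without the 3 apart libraries Lta was called at 18 h, its rise being larger in KO by 1.00, and 14.4% of genes were called.

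Other genes of the pathway were taken from 3 lists: the receptors of the members, the other ligands of the superfamily, and signalling and shedding genes. Of 9 receptors, 6 had enough Pol II to be tested in WT at 1 h, of which 1 rose and 4 fell (3 and 0 after centring on the median), beside 87.0% of all genes called. The one that rose was Tnfrsf1b, the TNFR2 receptor of TNF, by 1.96 at 1 h in WT and 1.69 in KO, and by 2.67 and 1.85 at 18 h. At 18 h Tnfrsf1b held 15902, 15918 and 16461 tags at its lowest, median and highest in WT and 10933, 11117 and 11147 in KO, lower in KO by 0.54 (SE 0.05, adjusted p = 2.5e-07). Between genotypes, 3 of 7 receptors tested were higher in KO at 0 h and 0 lower, beside 6.96% of all genes called, 2 of 6 were higher at 1 h and 0 lower (1 and 3 after centring, 2 and 1 under quantile normalization), beside 45.7%, and 1 of 7 was higher and 2 lower at 18 h, beside 21.1%. The share of receptors called at 1 h was below that of all genes, and the same percentages apply to the other lists. Tnfrsf10b, the mouse receptor of TRAIL, was among those higher in KO at each time. It held 263.1 ± 9.87 tags in KO at 1 h, with no region in any WT library, and at 0 h and 18 h it was higher in KO by 2.32 and 1.36 (SE 0.18 each, adjusted p = 1.5e-07 and 2.8e-05).

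Of 11 other ligands, 6 were tested in WT at 1 h, and 4 rose and 2 fell, as deposited and after centring alike, where 87.0% of all genes were called. Tnfsf4, which encodes OX40L, had no region at 0 h or 18 h in any library and held 2147, 2236 and 2244 tags in WT and 3632, 3652 and 4048 in KO at 1 h, from the lowest to the highest, higher in KO by 0.77 (SE 0.09, adjusted p = 5.8e-06). Tnfsf14, which encodes LIGHT, rose by 2.69 in WT and 1.87 in KO and was lower in KO at 1 h by 1.06 (SE 0.17, adjusted p = 1.3e-04). The 2 that fell, Tnfsf12 (TWEAK) and Tnfsf13 (APRIL), neighbouring genes, fell by 2.54 and 2.75 in WT. Both had 212.7 ± 14 tags per kb at 0 h, so they were not measured separately there. Between genotypes, 1 of 5 other ligands was higher in KO at 0 h, 4 of 6 were higher and 1 lower at 1 h (2 and 1 after centring, 1 and 1 under quantile normalization), and 1 of 5 was higher at 18 h. Of the 13 signalling and shedding genes, 13 were called in WT at 1 h, 8 higher and 5 lower (8 and 2 after centring), beside the same 87.0%. Traf1, an adaptor, rose by 5.49 at 1 h and 4.38 at 18 h in WT and by 5.41 and 4.99 in KO, and Cflar, which blocks death-receptor signalling, rose by 2.89 and 2.14 in WT and by 2.96 and 2.48 in KO. Casp8, the caspase that this inhibitor restrains, fell by 1.11 at 1 h and rose by 1.11 at 18 h in WT, where the median gene changed by -0.82 and 0.00. Between genotypes, 2 of the 13 were higher in KO and 1 lower at 0 h, 5 higher and 1 lower at 1 h (1 and 6 after centring, 2 and 1 under quantile normalization), and 4 higher and 1 lower at 18 h (7 and 0 after centring, 4 and 1 under quantile normalization).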

How the data were processed

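Chromatin from 36 immunoprecipitated samples and 6 inputs was sequenced. Per the study's methods and processing notes, the authors trimmed reads, aligned them to mm10 with HISAT2 2.1.0, removed duplicates and found regions in each library with HOMER, with no input library as control. The file headers give search windows of 500 bp, a Poisson p of 0.001 and stitching within 1000 bp. The deposited value is the tag count of a region scaled to 10 M tags, a signal and not a raw count. A place with no region is listed at 0, which is no measure of absence.

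Tags of a region were shared by overlap with the windows of 21911 protein-coding genes of GENCODE vM21 (27 symbols that occur more than once were left out): the gene body with 500 bp on either side for Pol II, and 2500 bp around the start for H3K27ac. For each antibody, limma 3.58.1 in R 4.3.3 was fitted to log2(tags + 10) with 6 group means and a mean-variance trend, over genes with a region in at least 2 of 3 libraries of a compared group. Fold changes are on this scale, which understates changes of low genes. P-values were adjusted over all genes tested (Benjamini-Hochberg) and called under 0.05. The procedure was tested on simulated data.

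Replicate numbers did not pair samples (median correlation of deviations for the same number 0.00984 for Pol II and -0.00123 for H3K27ac), so the fits have no replicate block. The members and the lists were chosen with earlier results of these data known. All 8 members are named, of each list at most the 2 largest called rises and falls of a comparison, and for each member the 3 genes most like it over the Pol II libraries. Alternatives were another pseudocount, no filter, median centring, quantile normalization, a replicate block, leaving out replicates, narrower windows, regions at least 50% inside a window, no regions shared with input, a stricter region threshold and a common density floor. Leaving out the 3 H3K27ac libraries that stood apart was chosen after seeing the data. The catalogue number of the Pol II antibody differs between the labels and the study's methods.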

Additional observations from a re-analysis of the deposited data

Results flagged for a closer look

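For 7 results with Pol II and 1 with H3K27ac, the LPS change differed between KO and WT by the test of the difference itself (limma interaction, adjusted p under 0.05). For Pol II at 1 h, the change in KO minus that in WT was -0.58 at Cd40, -1.27 at Tnfsf15 and 1.62 at Tnfsf13b on the log2 scale. At Tnfsf13b no library held more than 19.63 tags and no WT library had a region at 1 h, so 1.62 depends on the pseudocount and is no measured fold. For Pol II at 18 h it was 0.62 at Tnf, 1.12 at Lta, 0.51 at Ltb and 0.47 at Cd40, the values of Tnf, Lta and Ltb coming from a single shared region. For H3K27ac it was 0.94 at Tnfsf13b at 1 h. Single values within groups of 3 libraries were not tested as outliers.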

How the results depend on the processing

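With all libraries and the settings described, the members called for Pol II numbered 7, 8, 6 and 6 for LPS (1 h WT, 18 h WT, 1 h KO, 18 h KO), 7 for 18 h against 1 h, 5, 3 and 3 for KO against WT at 0, 1 and 18 h, and 3 and 4 for the interactions at 1 h and 18 h. Counting only regions at least 50% inside the window gave 3, 4, 2, 3, 3, 1 and 1 for the first 7 of these and 1 for the interaction at 18 h. Dropping regions that overlap an input region gave 1, 2, 0, 1 and 1 for the first 5, 0 and 1 for KO against WT at 0 h and 18 h, and 0 and 1 for the interactions. Both settings remove regions over the members by construction, since regions are longer than the windows or shared with input. For KO against WT at 0 h, no filter gave 2, the replicate block 3, the narrow window 0 and leaving out a replicate 1 to 2. For KO against WT at 1 h, centring gave 5 and leaving out a replicate 1 to 5, and at 18 h centring gave 5. The interaction at 1 h fell to 1 with the narrow window and ran from 0 to 3 without a replicate. That at 18 h was 2 with no filter or the narrow window and 1 to 3 without a replicate.

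For H3K27ac the counts were 5, 6, 7, 6, 5, 0, 1, 0, 1 and 0 in the same order. Regions at least 50% inside gave 2, 2, 4, 3 and 3 for the first 5. Leaving out a replicate gave 0 to 1, 0 to 5 and 0 to 1 for KO against WT at 0, 1 and 18 h, and 0 to 3 and 0 to 1 for the interactions. At 1 h KO against WT gave 2 without KO 1 h replicate 1, and 0 with a stricter threshold or the common floor. The interaction at 1 h gave 0 with a pseudocount of 1, no filter, the replicate block, the narrow window, the stricter threshold and the common floor. Without the 3 apart libraries, KO against WT and the interaction at 18 h each gave 1.

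Directions turned in these cases. Without regions shared with input, Cd40 Pol II changed by -0.55, -0.55, -0.49 and -0.49 for LPS (1 h WT, 18 h WT, 1 h KO, 18 h KO), by -0.06 for KO against WT at 0 h and by 0.06 for the interaction at 1 h. Tnfsf13b Pol II from 1 h to 18 h was -0.58 after centring and -0.26 after quantile normalization, and the Ltb Pol II interaction at 18 h was -0.57 with the narrow window. With regions at least 50% inside, H3K27ac at Tnfsf9 changed by -4.68 (1 h WT), -4.56 (1 h KO) and 4.98 (18 h against 1 h), at Cd40 by -1.21 (1 h WT), -1.29 (1 h KO), -1.23 (18 h KO) and 1.64 (18 h against 1 h), and from 1 h to 18 h by 3.14 at Tnf and -0.89 at Ltb. H3K27ac at Ltb in KO at 1 h ran from -0.39 to 0.30 when a replicate was left out. Other than for the 50% and input settings the cause was not tested.

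Over all members and comparisons, the replicate block left 153 results on the same side of the threshold, moved 3 past it and took 4 from it, although the numbers do not pair the samples. Centring left 150 unchanged in call and direction, moved 7 past the threshold, took 2 from it and turned 1. Leaving out the libraries numbered 1 added 17 calls, took 7 and turned 1 direction, leaving out those numbered 2 took 20 and added 1, and leaving out those numbered 3 took 18 and added 2. With 3 libraries a group, low values (Tnfsf13b throughout, Tnfsf10 at 0 h and 1 h, Tnfsf15 at 0 h) limit what can be compared.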
